A study of Mus musculus with 6 samples.

Results

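Glycolysis and the pentose phosphate pathway were followed across 32 named genes of mouse epidermis, from glucose uptake to lactate export, with the regulatory kinases of glycolysis and the enzymes of the pentose branch. They were taken by symbol from the 49452 gene rows of the deposited table, with the row of highest mean where a symbol had several, and all 32 had a row. The 6 libraries were compared at E19.5, late in embryonic life, on the C57BL/6 background, 3 labelled Rictor -/- (titled ricEKO, numbers 263, 265 and 266) and 3 labelled control (titled ctrl, numbers 261, 262 and 264). All come from separated epidermis. The sources used here do not state the allele, the driver of its deletion or the number of animals. Rictor is a defining subunit of mTOR complex 2, a kinase complex that activates AKT, and the study compared mRNA levels with and without it.

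Glycolysis splits glucose into pyruvate in the cytosol. Hexokinase traps glucose in the cell, phosphofructokinase commits it to breakdown, and lactate dehydrogenase turns pyruvate into lactate and returns the cofactor that the pathway consumes. Inside the mitochondrion, pyruvate dehydrogenase kinases inhibit pyruvate dehydrogenase and so block the conversion of pyruvate to acetyl-CoA. The pentose phosphate pathway branches off after hexokinase and supplies NADPH for lipid synthesis and antioxidant defence and ribose for nucleotides. In epidermis, keratinocytes rely strongly on glycolysis and release lactate.

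Values are FPKM, fragments per kilobase of transcript scaled to the mapped fragments of the library, which puts genes of different length on a common scale. Comparisons between libraries are given as deposited and depend in part on the scaling, as stated beside the counts. Tests used limma's linear model on log2(FPKM + 1), knockout-labelled minus control, over the 13500 genes whose average reached 1 FPKM in the knockout-labelled or the control libraries, with two-sided p-values adjusted by the Benjamini-Hochberg method and a threshold of 0.05. A difference is on that scale and is given with its standard error (SE, n = 3 libraries per group). Rictor itself stood at 6.83, 7.04 and 6.86 FPKM in the libraries labelled knockout, against 5.63, 6.02 and 4.37 FPKM in the controls (0.33 ± 0.11, limma adjusted p = 0.0694). It was thus not lower in them. A whole-gene value can keep reads from outside a deleted part, so it does not check the labels, and the libraries are called knockout-labelled throughout. Summed FPKM ran from 609375 to 672925. Spacing of the lowest values placed all depths within a factor of 1.21 of control 261. Keratinocyte markers were abundant in every library (12 markers with a summed 39422 to 40753 FPKM in knockout-labelled libraries, against 37763 to 40045 FPKM in controls). Within that list Krt14 and Krt5, keratins of the basal layer, rose (Krt14 to 5949 ± 901 FPKM in knockout-labelled libraries, against 2582 ± 282 FPKM in controls, 1.20 ± 0.14, limma adjusted p = 0.00373, and Krt5 by 0.57 ± 0.10). Krt15, another basal keratin, fell by 0.72 ± 0.14 and the desmosomal cadherin Dsg1a fell by 0.33 ± 0.09. Krt1 and Krt10, keratins of the differentiating layers and the largest terms of the sum, did not pass. These 6 were named after their values were seen, and their part in the differences below was not tested. Genes specific to males and females gave 1 male and 2 females among the knockout-labelled libraries and 2 males and 1 female among the controls. Nothing states that each library is a separate animal, so a p-value reflects spread among these samples that may be technical. Control 264 stood apart, with the highest value of the 3 controls in 22 of the 31 tested members and in all 8 genes of lower glycolysis, against 6803 of all 13500 tested genes.

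Across the pathway, 4 members rose and 5 fell, and 22 of the 31 tested did not pass. Pfkp, Eno1, Pkm and Ldha rose, enzymes of phosphofructokinase, enolase, pyruvate kinase and lactate dehydrogenase. Pfkm and Ldhb fell, the other forms of phosphofructokinase and lactate dehydrogenase, and so did the pyruvate dehydrogenase kinases Pdk1, Pdk2 and Pdk3. No member of the pentose phosphate pathway passed the test. The share of members called lower (16.1%) was close to that of all tested genes (15.6%), and the share called higher was 12.9%, against 7.91% of all tested genes. These contrasts depended on the processing. With values adjusted for gene length and GC content, 4 members were again called higher and 5 lower. Of all tested genes 12.9% were then called higher and 11.7% lower. As deposited, 29% of the members were called in either direction, against 23.5% of all tested genes, and whether the members differ from other genes was not tested. The groups did not overlap in 14 of 31 members, against 45.8% of all tested genes. The median log2 difference of the members was 0.00, against -0.06 over all tested genes. The remaining member, Slc2a3, was below 1 FPKM in both groups and was not tested, while the other 31 were at 1.55 FPKM or more in every library.

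These counts depended on single libraries. Without control 264 the members called were 7 higher and 5 lower (11.2% and 16.8% of all tested genes), with Slc16a1, Gapdh and Pgam1 added among the higher, Hk1 added and Pdk1 lost among the lower. Without control 261 or 262, or without knockout-labelled 263 or 266, only 1 member was called higher, and without 265 there were 2. Calls fell among all tested genes as well. Those called higher were then 634, 664, 477 and 537 in the same order, and 580 without 265, against 1068 with all libraries. Pfkp, Pfkm, Ldhb, Pdk2 and Pdk3 passed in all 17 refits, which covered pseudocounts, filters, scaling between libraries, variance models, a sex term and each library left out. The fitted difference of every called member kept its sign throughout. With trimmed mean scaling the members called were 5 higher and 4 lower, and 50.7% of all calls were higher, against 33.7% as deposited.

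**Figure D1:**
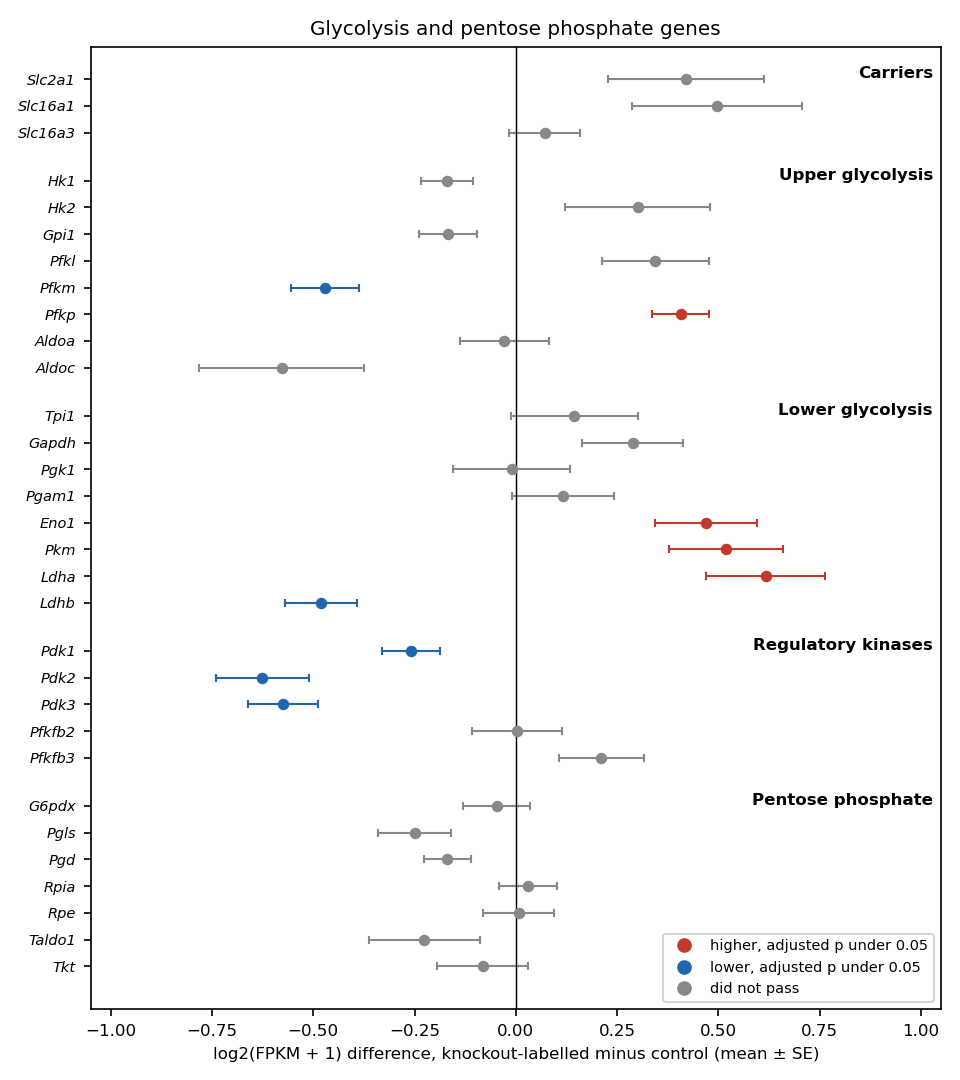
Difference in log2(FPKM + 1), knockout-labelled minus control, for the 31 tested members in pathway order from top to bottom, with points for the estimate and bars for its SE (3 libraries per group). Pfkp, Eno1, Pkm and Ldha lie to the right of 0 and passed the test, Pfkm, Ldhb, Pdk1, Pdk2 and Pdk3 lie to the left and passed, and the pentose phosphate genes lie between -0.25 and 0.03.

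None of the 3 tested carriers passed limma's test, at an adjusted or an unadjusted p of 0.05. Slc2a1 (GLUT1), the main glucose transporter of keratinocytes, stood at 68.5, 54.0 and 73.5 FPKM in knockout-labelled libraries 263, 265 and 266, against 51.6, 59.2 and 36.5 FPKM in controls 261, 262 and 264. The groups overlapped, because 265 lay below control 262, and the difference was 0.42 ± 0.19 (limma, adjusted p = 0.160). With single libraries left out it ran from 0.23, without control 264, to 0.57, without control 262. Slc2a3 (GLUT3), a high-affinity glucose transporter, was at 0.697 to 0.972 FPKM in knockout-labelled libraries and 0.691 to 0.904 FPKM in controls, and Slc2a1 made up 98.7% ± 0.332 and 98.4% ± 0.244 (SD, n = 3 each) of the summed FPKM of the pair. Slc16a1 (MCT1), which carries lactate and pyruvate across the membrane, had 11.3, 13.0 and 10.5 FPKM in knockout-labelled libraries, against 7.57, 5.73 and 11.3 FPKM in controls. Control 264 alone overlapped the knockout-labelled libraries, and the difference of 0.50 ± 0.21 (limma, adjusted p = 0.133) became 0.73 without it (limma, adjusted p = 0.0164) and 0.29 without control 262 (limma, adjusted p = 0.264). Slc16a3 (MCT4), the lactate exporter of strongly glycolytic cells, averaged 2.46 ± 0.155 FPKM in knockout-labelled and 2.29 ± 0.166 FPKM in control libraries.

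In upper glycolysis the phosphofructokinase genes differed in direction. Pfkp (ENSMUSG00000021196, GRCm38 chr13:6579768-6648777), the platelet-type subunit, stood at 15.6, 13.6 and 15.2 FPKM in knockout-labelled libraries, against 10.6, 10.8 and 11.2 FPKM in controls. All 3 knockout-labelled libraries were above all controls, a rise of 0.41 ± 0.07 (limma, adjusted p = 0.0103). Pfkm (ENSMUSG00000033065, chr15:98092589-98132451), the muscle-type subunit, had 4.53, 4.31 and 4.61 FPKM in knockout-labelled libraries, against 6.58, 5.97 and 7.31 FPKM in controls. Every knockout-labelled library was below every control, and Pfkm fell by 0.47 ± 0.08 (limma, adjusted p = 0.0108). Pfkl, the liver-type subunit and the most abundant of the family, had 30.2, 20.4 and 26.0 FPKM in knockout-labelled libraries, against 19.7, 19.8 and 19.49 FPKM in controls, where 265 lay close to the controls (0.34 ± 0.13, limma adjusted p = 0.103). Without 265 its difference was 0.49 (limma, adjusted p = 0.0244), and without 263 it was 0.22 (limma, adjusted p = 0.246).

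Within each library Pfkm supplied 9.01%, 11.3% and 10.1% of the family's summed FPKM in knockout-labelled libraries, against 17.9%, 16.3% and 19.2% in controls. A share within a library does not depend on scaling between libraries. The log2 ratio of Pfkm to Pfkl was lower by 0.82 in the knockout-labelled libraries, with no overlap of the groups, at the smallest p that 3 against 3 libraries allow (exact two-sided permutation test, p = 0.10, adjusted p = 0.20 over 10 isoform pairs). The ratio of Pfkp to Pfkl differed by 0.06, and the groups overlapped (exact permutation p = 0.60, adjusted p = 0.667). Phosphofructokinase proteins assemble into tetramers of mixed subunits, which gene-level RNA does not show. Skeletal muscle markers, 11 in the table of 12 listed, summed to 39.6 to 106 FPKM in knockout-labelled libraries and 37.6 to 75.05 FPKM in controls, and none of the 9 tested passed limma's test, also at an unadjusted p under 0.05. None of them was at 0 in every library. Their part in the difference of Pfkm was not tested.

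The other upper enzymes did not pass. Hk1, the hexokinase of most tissues, averaged 13.5 ± 0.566 FPKM in knockout-labelled and 15.3 ± 0.603 FPKM in control libraries (SD, n = 3 each), and the groups did not overlap (-0.17 ± 0.06, limma adjusted p = 0.0962). Hk2, the inducible hexokinase, averaged 13.9 ± 1.10 and 11.3 ± 2.93 FPKM in the same order, with control 264 lowest at 7.99 FPKM. Hk2 supplied 50.7% ± 2.97 of the summed FPKM of these hexokinases in knockout-labelled libraries and 42.0% ± 5.86 in controls, and the log2 ratio of Hk2 to Hk1 differed by 0.47 (exact permutation p = 0.10, adjusted p = 0.20). Without control 264 that ratio differed by 0.29 and the difference of Hk2 itself was 0.088, against 0.30 ± 0.18 with all libraries. Gpi1, glucose-6-phosphate isomerase, averaged 109 ± 2.97 FPKM in knockout-labelled and 122.4 ± 8.09 FPKM in control libraries. Aldoa, the aldolase that made up 96.9% ± 0.889 and 95.5% ± 0.509 of aldolase FPKM in knockout-labelled and control libraries, averaged 299.6 ± 19.98 FPKM in knockout-labelled and 307 ± 40.3 FPKM in control libraries. Aldoc, the form best known from brain, had 7.38, 11.7 and 9.14 FPKM in knockout-labelled libraries, against 15.0, 11.0 and 17.7 FPKM in controls, with 265 above control 262 (-0.58 ± 0.20, limma adjusted p = 0.0839). Its difference was -0.75 without control 262 (limma, adjusted p = 0.0427) and -0.43 without knockout-labelled 263 or control 264 (limma, adjusted p = 0.220 and 0.168).

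**Figure D2:**
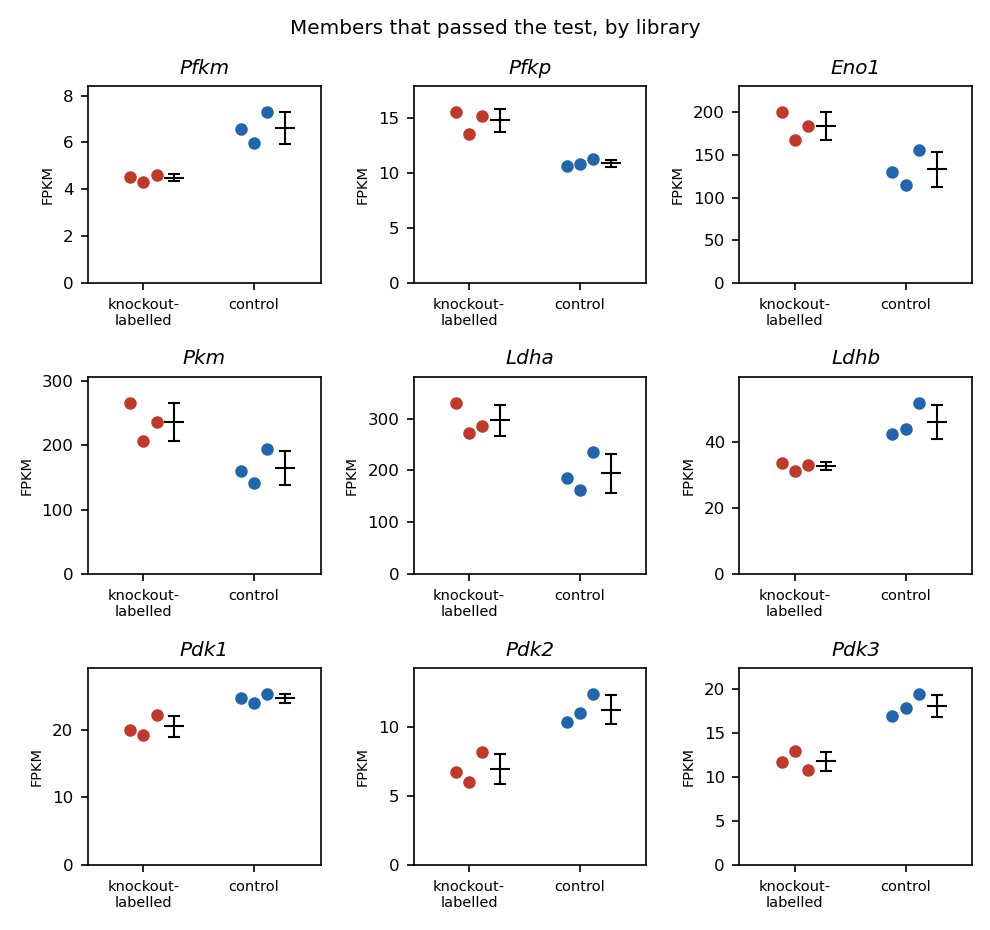
FPKM in each library for the 9 members that passed the test, knockout-labelled libraries on the left and controls on the right of each panel, with a bar for the mean and its SD (n = 3). In each of the 9 panels the groups do not overlap, and the third control point (264) is the highest control.

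In lower glycolysis Eno1, Pkm and Ldha, genes of the last 3 steps to lactate, rose. Ldha (ENSMUSG00000063229, chr7:46841475-46855627), the lactate dehydrogenase subunit that favours lactate formation, had 331, 273 and 286 FPKM in knockout-labelled libraries, against 186, 163 and 235 FPKM in controls. The lowest knockout-labelled library was above the highest control, and the rise was 0.62 ± 0.15 (limma, adjusted p = 0.0272), or 1.52-fold in mean FPKM. Pkm (ENSMUSG00000032294, chr9:59656368-59679375), the pyruvate kinase gene of most tissues, stood at 266, 207 and 236 FPKM in knockout-labelled libraries, against 159, 142 and 194 FPKM in controls. It rose by 0.52 ± 0.14 (limma, adjusted p = 0.0398), and the spliced forms M1 and M2 cannot be told apart in a gene-level value. Eno1 (ENSMUSG00000063524, chr4:150236721-150248879), enolase, had 201, 168 and 184 FPKM in knockout-labelled libraries, against 129.7, 115 and 156 FPKM in controls, a rise of 0.47 ± 0.13 (limma, adjusted p = 0.0384). In all 3 genes library 263 was the highest of the knockout-labelled libraries and 264 the highest control.

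The calls of these 3 genes were lost when any library except control 264 was left out (limma adjusted p of 0.0565 to 0.0918 for Ldha, 0.0517 to 0.124 for Pkm and 0.0622 to 0.124 for Eno1), while the differences stayed between 0.37 and 0.76 with any library left out, 264 included. Without a filter on low values they were lost as well (adjusted p = 0.0698, 0.0915 and 0.0861), and with a sex term those of Pkm and Eno1 (0.0571 and 0.0529). Processed copies share sequence with such genes, and the sources used here do not state how the authors' counting split shared reads. The rows named Ldha-ps2 and Eno1b stood at 0.382 to 0.473 and 0.934 to 1.17 FPKM in knockout-labelled libraries and at 0.179 to 0.306 and 0.728 to 0.966 FPKM in controls.

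Ldhb (ENSMUSG00000030246, chr6:142490249-142507957), the subunit that favours the return of lactate to pyruvate, went the other way. It stood at 33.5, 31.2 and 33.1 FPKM in knockout-labelled libraries, against 42.3, 43.8 and 51.8 FPKM in controls, with the knockout-labelled libraries all below the controls. Ldhb fell by 0.48 ± 0.09 (limma, adjusted p = 0.0121). Its share of lactate dehydrogenase FPKM was 9.94% ± 0.656 in knockout-labelled libraries and 19.3% ± 1.71 in controls (SD, n = 3 each), and the highest knockout-labelled share (10.4%) was well below the lowest control share (18.1%). The log2 ratio of Ldhb to Ldha differed by -1.10 (exact permutation p = 0.10, adjusted p = 0.20), and by -1.16 to -1.01 with each library left out. In summed FPKM of the pair the knockout-labelled libraries had 364, 304 and 319, against 228, 206 and 287 in the controls.

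The 4 other genes of lower glycolysis did not pass. Gapdh, which makes the first high-energy phosphate of the pathway, had 358, 289.8 and 338 FPKM in knockout-labelled libraries, against 258, 239.5 and 310.2 FPKM in controls. Control 264 lay above 265, and the difference of 0.29 ± 0.12 (limma, adjusted p = 0.139) became 0.39 without control 264 (limma, adjusted p = 0.0366), 0.21 without control 262 (limma, adjusted p = 0.295) and 0.36 with trimmed mean scaling (limma, adjusted p = 0.0479). Pgam1, phosphoglycerate mutase, averaged 102 ± 3.61 FPKM in knockout-labelled and 94.7 ± 17.3 FPKM in control libraries, and its difference of 0.12 ± 0.13 became 0.26 without control 264 (limma, adjusted p = 0.0201) and 0.029 without control 262 (limma, adjusted p = 0.887), and was 0.061 without control 261. The row Pgam1-ps2, named for a copy of Pgam1, stood at 5.98 to 7.03 FPKM in knockout-labelled libraries and 5.41 to 6.31 FPKM in controls. Tpi1, triose phosphate isomerase, differed by 0.14 ± 0.16 (limma, adjusted p = 0.531), by 0.30 without control 264 (limma, adjusted p = 0.0937) and by 0.028 without control 262 (limma, adjusted p = 0.912). Without knockout-labelled 263 or 265 it differed by 0.068 or 0.24. Pgk1, the X-linked phosphoglycerate kinase, averaged 83.5 ± 2.88 FPKM in knockout-labelled and 85.3 ± 18.8 FPKM in control libraries, where 264 stood at 107 FPKM and the other controls at 74.95 and 74.0 FPKM.

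The stretches before the RefSeq start sites of the lactate dehydrogenase and phosphofructokinase pairs that moved apart, and of Eno1 and Pkm, are shown with the letters of the core to which hypoxia-inducible factors bind. Each is the 250 bases before the first start listed for the gene in RefSeq on GRCm38.p6, 5′ to 3′ on the gene's strand, and capitals mark ACGTG or GCGTG on either strand (CACGT or CACGC where reversed).
Ldha (chr7:46845554-46845803, plus strand): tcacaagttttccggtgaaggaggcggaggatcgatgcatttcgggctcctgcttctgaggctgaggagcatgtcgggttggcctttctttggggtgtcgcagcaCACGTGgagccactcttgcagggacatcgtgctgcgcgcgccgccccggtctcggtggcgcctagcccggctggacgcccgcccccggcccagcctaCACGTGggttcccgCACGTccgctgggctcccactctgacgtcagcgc
Ldhb (chr6:142507958-142508207, minus strand): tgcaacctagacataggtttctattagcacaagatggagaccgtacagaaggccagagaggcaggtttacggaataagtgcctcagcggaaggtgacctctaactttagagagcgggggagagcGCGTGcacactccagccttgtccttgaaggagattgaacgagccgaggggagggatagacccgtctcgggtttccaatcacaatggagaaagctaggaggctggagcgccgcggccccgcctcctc
Pfkp (chr13:6648772-6649021, minus strand): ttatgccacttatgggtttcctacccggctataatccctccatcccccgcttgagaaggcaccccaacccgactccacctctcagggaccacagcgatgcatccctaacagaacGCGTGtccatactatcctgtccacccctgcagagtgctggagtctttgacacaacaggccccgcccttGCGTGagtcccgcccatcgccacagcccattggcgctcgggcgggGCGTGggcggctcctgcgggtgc
Pfkm (chr15:98092339-98092588, plus strand): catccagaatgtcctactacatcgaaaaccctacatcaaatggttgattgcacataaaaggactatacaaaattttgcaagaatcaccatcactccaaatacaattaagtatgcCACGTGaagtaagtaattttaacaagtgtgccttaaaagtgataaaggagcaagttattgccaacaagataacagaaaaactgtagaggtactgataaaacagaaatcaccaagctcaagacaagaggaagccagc
Eno1 (chr4:150236458-150236707, plus strand): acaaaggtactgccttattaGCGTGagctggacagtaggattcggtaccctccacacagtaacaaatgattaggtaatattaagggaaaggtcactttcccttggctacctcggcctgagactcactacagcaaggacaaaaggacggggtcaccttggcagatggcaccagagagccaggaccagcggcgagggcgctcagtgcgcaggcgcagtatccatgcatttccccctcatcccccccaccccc
Pkm (chr9:59656326-59656575, plus strand): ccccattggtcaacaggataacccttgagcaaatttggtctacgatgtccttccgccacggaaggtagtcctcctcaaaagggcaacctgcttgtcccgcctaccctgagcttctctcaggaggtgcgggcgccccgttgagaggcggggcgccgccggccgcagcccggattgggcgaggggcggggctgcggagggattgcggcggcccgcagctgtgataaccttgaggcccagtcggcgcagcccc

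Ldha held the E-box CACGTG at 2 places, each of which contains ACGTG on both strands, and 1 further ACGTG, while Ldhb held a single GCGTG. Pfkp held 3 GCGTG and Pfkm 1 CACGTG, Eno1 held 1 GCGTG, and Pkm held neither core. Of the 31 members with a listed promoter 25 held ACGTG or GCGTG in this window, against 38.6% of 27025 promoters of the same length, and 5 held CACGTG, against 6.0% of all. These 27025 include promoters of genes not expressed here and were not matched to the members in base composition, and both cores contain CG. Whether the members hold more matches than like promoters was therefore not tested. Slc2a3 had no entry. Several of these genes have further listed starts that are not shown, and a match is only a match of letters.

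**Figure D3:**
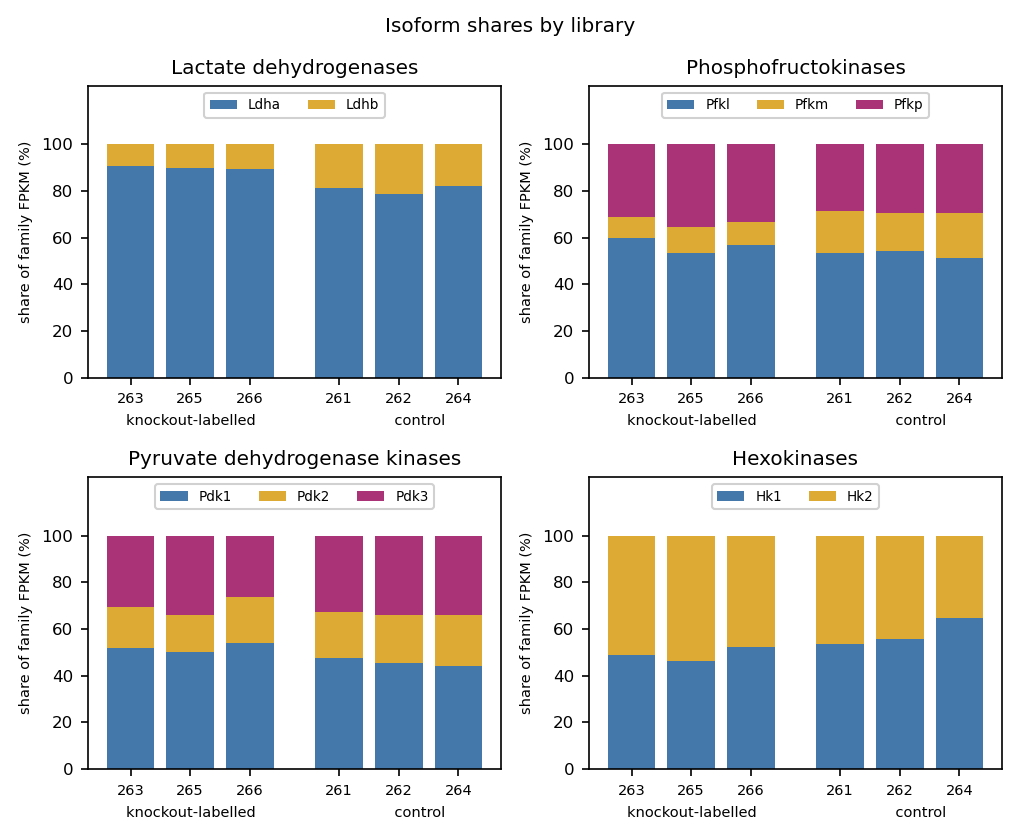
Share of each isoform in the summed FPKM of its family, in percent, as stacked bars for each library, knockout-labelled (263, 265, 266) left of control (261, 262, 264). Ldhb takes 9.18% to 10.4% in knockout-labelled libraries and 18.1% to 21.2% in controls, and Pfkm 9.01% to 11.3% and 16.3% to 19.2%.

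The pyruvate dehydrogenase kinases fell together. Pdk3 (ENSMUSG00000035232, chrX:93764607-93832201) had 11.8, 12.9 and 10.8 FPKM in knockout-labelled libraries, against 17.0, 17.9 and 19.51 FPKM in controls, and fell by 0.58 ± 0.09 (limma, adjusted p = 0.00672). Pdk2 (ENSMUSG00000038967, chr11:95026258-95041354), the broadly expressed kinase of the family, stood at 6.74, 6.04 and 8.18 FPKM in knockout-labelled libraries, against 10.4, 11.0 and 12.4 FPKM in controls, and fell by 0.63 ± 0.12 (limma, adjusted p = 0.0121). Neither gene had overlapping groups. Pdk1 (ENSMUSG00000006494, chr2:71873224-71903858), the form induced by hypoxia, had 20.02, 19.2 and 22.2 FPKM in knockout-labelled libraries, against 24.7, 24.0 and 25.3 FPKM in controls. Its fall of 0.26 ± 0.07 (limma, adjusted p = 0.0419) lost its call when any library was left out (adjusted p of 0.0505 to 0.134), with median, trimmed mean or quantile scaling (0.0667, 0.0860 and 0.0558), with a sex term (0.0952), without an intensity trend (0.0527) and without a filter (0.0663). In summed FPKM of the 3 kinases the knockout-labelled libraries stood at 38.5, 38.2 and 41.2, against 52.1, 52.9 and 57.3 in the controls. Pdk1 made up 52.1% ± 1.81 of that sum in knockout-labelled libraries and 45.7% ± 1.64 in controls (SD, n = 3 each). Pdk4, the fasting-induced kinase, is no member of the set and was added after its value was seen. It was at 1.47 ± 0.619 FPKM in knockout-labelled and 2.97 ± 1.499 FPKM in control libraries and did not pass (-0.63 ± 0.33, limma adjusted p = 0.209).

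The bifunctional enzymes that set the level of fructose 2,6-bisphosphate, the activator of phosphofructokinase, did not pass. Pfkfb2 averaged 8.97 ± 0.381 FPKM in knockout-labelled and 9.02 ± 1.39 FPKM in control libraries. Pfkfb3, the form with the strongest kinase activity, averaged 2.23 ± 0.232 and 1.79 ± 0.218 FPKM in the same order (0.21 ± 0.11, limma adjusted p = 0.190). Their log2 ratio, Pfkfb2 to Pfkfb3, differed by -0.21 with no overlap of the groups (exact permutation p = 0.10, adjusted p = 0.20). Of the 10 isoform pairs compared, 5 had groups that did not overlap, namely Hk2 to Hk1, Pfkm to Pfkl, Ldhb to Ldha, Pdk1 to Pdk2 and Pfkfb2 to Pfkfb3, and no pair could reach 0.05. As single genes, 45.8% of all 13500 tested had groups that did not overlap. No such share was computed for ratios of other genes, and whether these pairs differ from them was not tested.

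In the pentose phosphate pathway none of the 7 enzymes passed limma's test in either direction (0 higher and 2 lower, Pgls and Pgd, at an unadjusted p under 0.05), and their differences ran from -0.25 to 0.03 with a median of -0.08. G6pdx, the X-linked enzyme that opens the pathway and makes its first NADPH, had 41.3, 34.9 and 41.1 FPKM in knockout-labelled libraries, against 40.4, 38.7 and 41.8 FPKM in controls. The groups overlapped (-0.05 ± 0.08, limma adjusted p = 0.704). Pgls and Pgd, the next steps, had groups that did not overlap. Pgls averaged 92.9 ± 3.08 FPKM in knockout-labelled and 111 ± 12.3 FPKM in control libraries (-0.25 ± 0.09, limma adjusted p = 0.0873, and -0.16 without control 264), and Pgd 44.8 ± 1.61 and 50.5 ± 0.802 FPKM in the same order (-0.17 ± 0.06, limma adjusted p = 0.0785). In the branch that rearranges sugars, Taldo1 (transaldolase) differed by -0.23 ± 0.14 (-0.085 without control 264 and -0.33 without control 262) and Tkt (transketolase) by -0.08 ± 0.11. Rpia and Rpe, which interconvert the pentose phosphates, differed by 0.03 ± 0.07 and 0.01 ± 0.09. The groups of these 4 genes overlapped.

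Levels within the set spanned from Slc2a3 at a mean of 0.819 FPKM to Aldoa at 303 FPKM over all 6 libraries. Aldoa and Gapdh lay at the 98.1 percentile of the 13500 tested genes, Ldha at 97.7, Pkm at 97.3 and Eno1 at 96.5. Of the carriers and upper steps Gpi1 lay at 95.1, Slc2a1 at 88.7 and Pfkl at 70.0, while Hk1, Pfkp and Hk2 lay at 57.1, 53.7 and 53.3 and Pfkm lower still. Of the pentose enzymes Pgls, Taldo1 and Tkt were the most abundant, at the 94.5, 93.2 and 89.1 percentile. In the lactate dehydrogenase and phosphofructokinase families the called falls were those of the least abundant member forms, Ldhb and Pfkm, and Ldha, which rose, was the more abundant. Pfkp, which also rose, was less abundant than Pfkl, which did not pass.

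Other enzymes at the same steps split. Of 38 listed isoforms and neighbours 25 were tested, and 2 rose and 3 fell (8% and 12%, against 7.91% and 15.6% of all tested genes). Fbp1, which reverses the phosphofructokinase step, fell by 0.77 ± 0.12 (15.8 ± 1.66 FPKM in knockout-labelled and 27.8 ± 3.66 FPKM in control libraries, limma adjusted p = 0.00684). Shpk, which phosphorylates sedoheptulose, fell by 0.65 ± 0.10 and the glucose transporter Slc2a12 fell by 0.56 ± 0.10, while Gapdhs, the sperm form of Gapdh, rose by 0.58 ± 0.13. Gapdhs was tested through the knockout-labelled libraries alone (1.14 ± 0.249 FPKM, against 0.424 ± 0.0577 FPKM in controls), and Shpk and Slc2a12 through the controls alone, so the filter favoured those directions in advance. Without control 264 the counts were 4 higher and 4 lower (11.2% and 16.8% of all tested genes). Slc2a2, Pgk2, Ldhc and Tktl2, named after their values were seen, were listed at 0 in every library.

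Downstream of pyruvate, 1 of 27 genes of mitochondrial pyruvate import, pyruvate dehydrogenase and the citrate cycle fell and none rose by limma, against 23.5% of all tested genes called. That gene was Sdhb, a subunit of succinate dehydrogenase (72.5 ± 3.77 FPKM in knockout-labelled and 91.2 ± 6.62 FPKM in control libraries, -0.33 ± 0.08). Without control 264 there were 3 higher and 1 lower (11.2% and 16.8% of all tested genes). With the length and GC adjustment there were 2 higher and 0 lower (12.9% and 11.7% of all tested genes), so the call of Sdhb was lost. At an unadjusted p under 0.05 there were 2 higher and 2 lower with all libraries. Of 28 tested genes of glycogen and sugar side branches 3 rose and 6 fell. Gpd2, the mitochondrial arm of the glycerol phosphate shuttle, rose by 0.79 ± 0.08 and Uap1, of hexosamine synthesis, by 0.43 ± 0.06. Gpd1, the cytosolic arm of that shuttle and named after its value was seen, fell by 0.91 ± 0.19 (limma, adjusted p = 0.0189). Glycogen phosphorylase Pygl fell by 0.49 ± 0.08 and sorbitol dehydrogenase Sord fell by 0.77 ± 0.13. Of 14 tested genes of NADPH supply outside the pentose pathway 1 rose, the mitochondrial folate enzyme Mthfd2 (0.81 ± 0.09), and 3 fell, malic enzyme Me1 (-0.51 ± 0.07), Aldh1l1 (-0.35 ± 0.10) and the NAD kinase Nadk2 (-0.30 ± 0.09). Without control 264 these were 3 higher and 2 lower.

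A further list mixed hypoxia-inducible factors, their targets outside glycolysis and sugar-sensing regulators. Of its 24 tested genes 5 rose and 3 fell (20.8% and 12.5%, against 7.91% and 15.6% of all tested genes). Whether this list differs from other genes was not tested. Hif1a, the oxygen-regulated subunit that is controlled mainly as a protein, rose to 38.9 ± 1.69 FPKM in knockout-labelled libraries, against 21.7 ± 1.61 FPKM in controls (0.81 ± 0.07, limma adjusted p = 0.00218). Myc, a transcription factor that binds E-boxes, rose by 0.67 ± 0.10, the collagen prolyl hydroxylase P4ha1 by 0.46 ± 0.06 and Klf10 by 0.50 ± 0.08. Bnip3, a mitophagy receptor and hypoxia target named here after its value was seen, fell by 0.998 ± 0.21. The other calls, also named after their values were seen, were Vegfa, which rose by 0.40 ± 0.09, and Mxi1 and Egln3. Mxi1 fell by 0.43 ± 0.07 and Egln3 by 0.36 ± 0.11. Without control 264 the counts were 6 higher and 7 lower (11.2% and 16.8% of all tested genes), and the median of the list was -0.02 with all libraries.

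**Figure D4:**
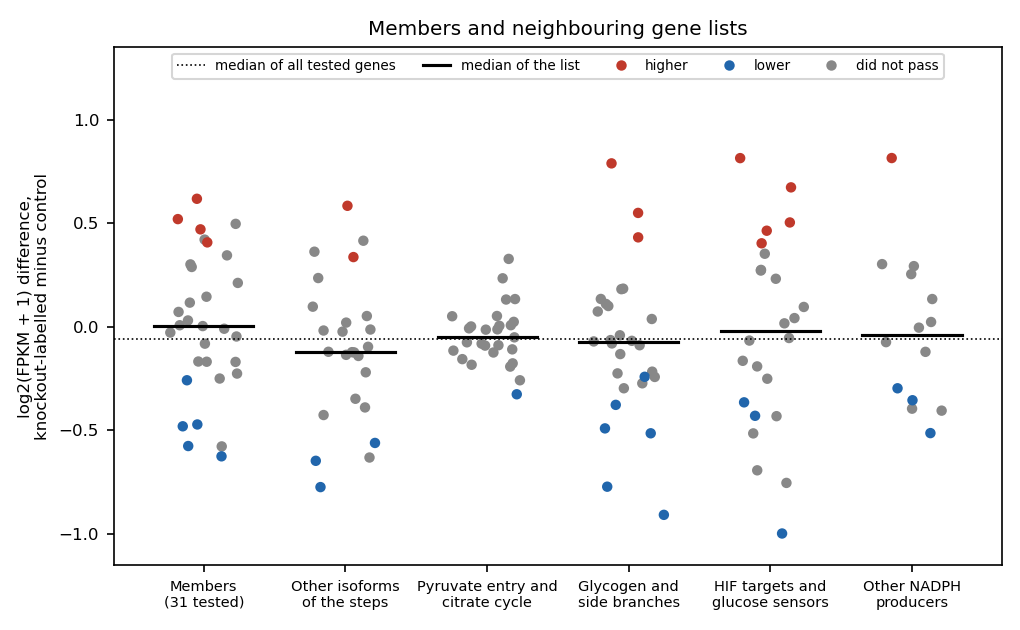
Difference in log2(FPKM + 1), knockout-labelled minus control, for each tested gene of the member set and of 5 neighbouring lists, with a bar for each list's median and a dotted line at -0.06, the median of all 13500 tested genes. Calls in both directions appear in the member set and in each list except pyruvate entry and the citrate cycle, where the only call is Sdhb.

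Markers of other cells also moved with the labels. Of all tested genes 7.91% were called higher and 15.6% lower. Of 10 myeloid markers 8 fell, with summed levels of 58.5 to 65.3 FPKM in knockout-labelled libraries and 89.7 to 124 FPKM in controls. Without control 264, and also with the length and GC adjustment, 6 of them were called lower (16.8% and 11.7% of all tested genes). Of 8 melanocyte markers 4 fell (299 to 334 FPKM, against 391.9 to 472 FPKM in controls), and of 10 fibroblast markers 4 of 8 tested rose (385 to 429 FPKM, against 307 to 335 FPKM in controls). The largest terms of the fibroblast sum, named after their values were seen, were Vim and Dcn. Vim rose (257 ± 8.02 FPKM in knockout-labelled libraries, against 189 ± 0.529 FPKM in controls). Dcn did not pass (111 ± 18.2 FPKM, against 105 ± 13.5 FPKM in controls). Erythroid markers summed to 151 to 336 FPKM in knockout-labelled libraries and 293 to 486 FPKM in controls, with Hbb-y at 0 in every library, and none of the 6 tested passed limma's test (3 were lower at an unadjusted p under 0.05). Of 21 proliferation genes 2 rose (780.0 to 845 FPKM, against 647 to 839.6 FPKM in controls). Among them 11 were called higher and 1 lower without control 264 (11.2% and 16.8% of all tested genes). Endothelial and adipocyte markers summed to at most 31.8 FPKM in any library, and none of the 4 tested passed, also at an unadjusted p under 0.05. Apart from Hbb-y no marker was at 0 in every library. The part of these cells in the differences above was not tested, and in bulk samples fewer cells of a type and less RNA per cell cannot be told apart.

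**Figure D5:**
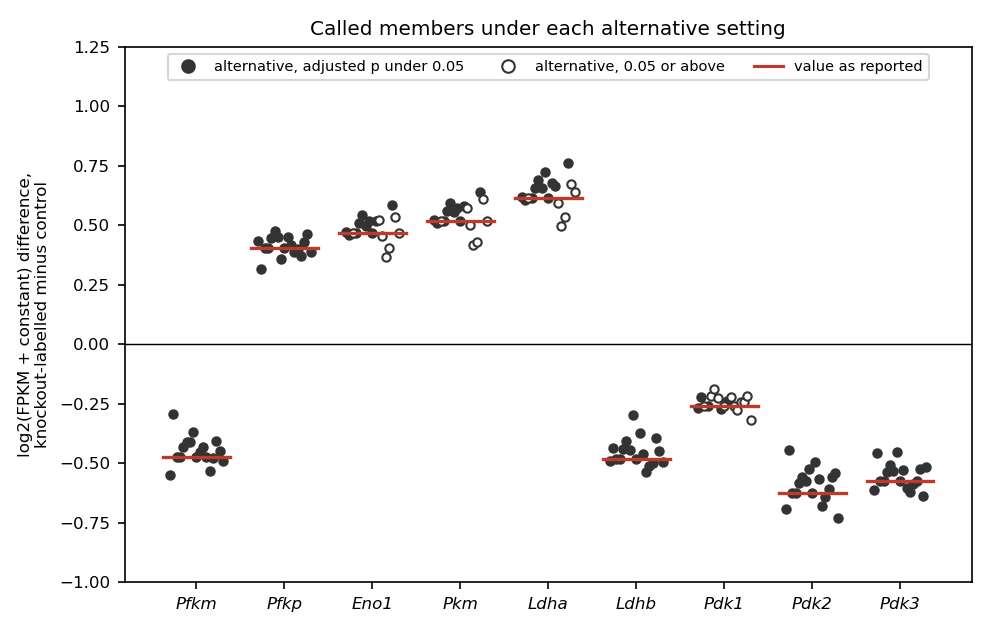
Difference for the 9 called members as reported (red bar) and in each of 17 refits (points), filled where the adjusted p was under 0.05. Pfkm, Pfkp, Ldhb, Pdk2 and Pdk3 are filled throughout, and Eno1, Pkm, Ldha and Pdk1 have open points.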

How the data were processed

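RNA of separated mouse epidermis was extracted on a QIAGEN RNeasy column and made into Illumina libraries, per the labels' protocols. Per the submitters' processing notes, GRCm38 was the build and CASAVA and Cufflinks the tools, with no version stated. Aligner, annotation and strandedness were not given in the sources used here. FPKM, as deposited by the authors, fill a single table whose columns are the libraries, per the file headers. FPKM divides by the library's total and by transcript length, so values shift with a library's most abundant genes and with any bias by length.

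Symbols, positions and lengths came from GENCODE M21 (GRCm38), which matched 49195 of 49452 rows, and 75 rows that shared a symbol with a higher row were left out. The members and lists were chosen with earlier results of these data known. All 32 members are named. From each pathway list the 4 called genes with the smallest p are named, and other names are marked as chosen after their values were seen.

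Count models were not applied to FPKM. limma 3.58.1 in R 4.3.3 was fitted to log2(FPKM + 1) with an intensity trend (prior degrees of freedom 2.80) and no covariates. The script was tested on data with known answers. Relative depth was read from the commonest ratio of low values, and no counting error was derived. Isoform ratios, log2((FPKM + 1)/(FPKM + 1)) within a library, were compared by exact permutation. Alternatives were pseudocounts of 0.1 and 5, no filter, a minimum of 5 FPKM, 3 scalings, a length and GC adjustment, no intensity trend, array weights, a sex term, a threshold of 0.10 and each library left out. Promoter sequences are RefSeq's on GRCm38.p6. Python 3.11.15, pandas 2.3.3 and matplotlib 3.10.9 were used.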

Additional observations from a re-analysis of the deposited data

How the results depend on the processing

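As reported, 1068 genes were called higher and 2101 lower. The counts were 1648 higher with trimmed mean scaling and 1743 higher with the length and GC adjustment, 2335 higher and 3937 lower with array weights, and 634 higher and 1218 lower with a sex term. With each library left out they ran from 477 to 1514 higher and from 985 to 2270 lower. Without rescaling, 33.7% of calls were higher, against 44.7% with median scaling, 50.7% with trimmed mean scaling, 47.9% with quantile normalization and 52.4% with the length and GC adjustment. Of the called members 44.4% were higher (4 and 5), against 55.6% (5 and 4) with trimmed mean scaling. The members called higher were 1 without a filter, 9 with array weights, 2 with a sex term and 1 to 7 with each library left out, and the members called lower were 9 with array weights and 9 at a threshold of 0.10. Over all tested genes 724 of 26986 were called higher without a filter, and 2977 of 13500 lower at a threshold of 0.10. The cause was not tested.

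No called member changed sign. Members that did not pass and lay near 0 did. Aldoa was at 0.013, 0.047, 0.0063, 0.083, 0.013 and 0.017 and Pgk1 at 0.032, 0.065, 0.046, 0.14, 0.13 and 0.025 with median, trimmed mean and quantile scaling, the length and GC adjustment, array weights and a sex term, and with libraries left out they ran from -0.12 to 0.070 and from -0.10 to 0.16. G6pdx was at 0.026 with trimmed mean scaling and 0.068 with the length and GC adjustment, Pfkfb2 at -0.11 with array weights and -0.025 with a sex term, and Rpia at -0.034 with array weights. With libraries left out G6pdx ran from -0.088 to 0.030, Pfkfb2 from -0.12 to 0.064, Rpia from -0.011 to 0.070, Rpe from -0.049 to 0.074 and Tkt from -0.19 to 0.017. The ratio of Pfkp to Pfkl was -0.0027 with the length and GC adjustment and -0.027 to 0.15 with libraries left out, and that of Pdk3 to Pdk2 was -0.015 with a pseudocount of 5 and -0.098 to 0.21 with libraries left out. The other 8 isoform pairs kept their direction in every alternative run for them. No paired analysis was possible because the library numbers all differ. With 3 libraries per group no exact test could go below 0.10, and gene-level counting error is unknown.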
